A study of Mus musculus with 49 samples.

Results

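The 9 genes described here encode parts of the complement system: the C1q chains C1qa, C1qb and C1qc, the components C4b, C3 and Cfb, the anaphylatoxin receptors C3ar1 and C5ar1, and the inhibitor Serping1. They were taken by symbol from a table of raw read counts with 45252 genes, of which 18220 passed the filter on low counts and were tested. All 9 genes were among those tested. RNA was sequenced from the neocortex of 49 mice, 1 library per mouse, to compare gene expression after transgene induction and immunization.

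The rNLS8 mice were bigenic: a NEFH promoter drives the tetracycline transactivator in neurons, and this switches on human TDP-43 without a functional nuclear localization signal (hTDP43ΔNLS) once doxycycline is withdrawn. Monogenic controls, called ctrl-PBS, carried the hTDP43ΔNLS allele without the transactivator. All mice, also the controls, came from the same mixed C57BL/6J x C3H/HeJ strain, lost doxycycline at 25.5 weeks of age and were perfused 3 weeks later, at 28.5 weeks. Injections began at 8 weeks of age. The 17 ctrl-PBS mice (10 females, 7 males) and the 10 TDP-PBS mice (4 females, 6 males), which were rNLS8, received PBS. The 10 TDP-10+12 mice (6 females, 4 males) were rNLS8 mice immunized with ovalbumin conjugates of the TDP-43 peptides 10 and 12 from the glycine-rich domain, and the 12 TDP-15 mice (5 females, 7 males) were rNLS8 mice immunized with the phosphorylated peptide 15. Injections held a total of 40 µg antigen with CpG oligonucleotide, Alhydrogel was the adjuvant, and boosters followed monthly. In both PBS groups, PBS took the place of the conjugates, and whether CpG and Alhydrogel were given with it is not spelled out.

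Library totals ran from 17775738 to 21033608 counts with a median of 19955601, and 3 counts in a library corresponded to 0.139 to 0.165 CPM, the counts of a gene scaled to a common library total. The labelled sex matched the sex-linked transcripts in 49 of 49 mice. Levels are CPM scaled by TMM factors. In bulk tissue, more cells of a type and more RNA per cell cannot be told apart.

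Complement is a cascade of plasma and tissue proteins that tags material for removal. In the classical pathway C1q binds its target and the proteases C1r and C1s cut C4 and C2, which then cut C3, while factor B forms the C3-cutting enzyme of the alternative pathway. In brain, C1q is made mainly by microglia and C4 by astrocytes among other cells, and the fragments C3a and C5a act on C3ar1 and C5ar1 of myeloid cells. The system is known there for the tagging of synapses during development and in disease.

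The members lie on 5 chromosomes of GRCm38. C1qa (chromosome 4: 136895916 to 136898844), C1qc (136889801 to 136892936) and C1qb (136880126 to 136886200) form a cluster that spans 18.7 kb. C4b (chromosome 17: 34728139 to 34743902) and Cfb (34856374 to 34862514) lie in a stretch of 154 kb of the MHC class III region, together with C4a and C2. C3 lies elsewhere on chromosome 17 (57203967 to 57228136), C3ar1 on chromosome 6 (122847140 to 122856157), C5ar1 on chromosome 7 (16246743 to 16259540) and Serping1 on chromosome 2 (84765360 to 84775444). All 9 genes are annotated on the minus strand.

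RefSeq promoter sequences (GRCm38.p6, 250 bases before to 50 after the annotated start) were at hand for 5 of the 9 members: C1qb, C1qc, C3, C3ar1 and C5ar1. The first pair below is shown because C1qb and C1qc are neighbours whose levels moved together in the mice, and the C5ar1 promoter because C5ar1 was the member not called in every rNLS8 group. Capitals mark the motif matches found. C1qb lies at chr4:136886151-136886450, C1qc at chr4:136892865-136893164 and C5ar1 at chr7:16259289-16259588, each read 5′ to 3′ on the minus strand.
C1qb: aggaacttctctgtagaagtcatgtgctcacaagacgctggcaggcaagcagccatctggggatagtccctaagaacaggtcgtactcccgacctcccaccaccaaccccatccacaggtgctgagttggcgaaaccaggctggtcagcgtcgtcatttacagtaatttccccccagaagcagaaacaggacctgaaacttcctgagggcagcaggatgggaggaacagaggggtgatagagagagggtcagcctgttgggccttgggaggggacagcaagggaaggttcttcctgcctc
C1qc: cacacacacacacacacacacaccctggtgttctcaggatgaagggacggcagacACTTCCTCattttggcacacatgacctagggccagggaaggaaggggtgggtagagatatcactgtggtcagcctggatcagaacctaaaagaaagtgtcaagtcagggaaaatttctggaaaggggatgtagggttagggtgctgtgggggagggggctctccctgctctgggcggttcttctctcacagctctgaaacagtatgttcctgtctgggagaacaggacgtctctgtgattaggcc
C5ar1: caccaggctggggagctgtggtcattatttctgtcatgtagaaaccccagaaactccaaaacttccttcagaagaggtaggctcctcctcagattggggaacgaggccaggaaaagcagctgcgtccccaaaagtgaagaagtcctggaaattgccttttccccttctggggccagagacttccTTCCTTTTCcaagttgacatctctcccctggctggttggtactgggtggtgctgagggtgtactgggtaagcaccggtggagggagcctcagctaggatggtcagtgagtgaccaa
The letters GAGGAAGT, a site form of the myeloid factor PU.1, were searched on both strands and occurred once among the 5 promoters, in reverse orientation in C1qc, with the first base 195 bases before the start (position -195). They occurred in 3.28% of 27025 RefSeq promoters of this length. The core of the interferon-stimulated response element, GAAANNGAA, occurred in reverse orientation in C5ar1 at position -66 and in 8.57% of all promoters. The STAT site TTCNNNGAA (8.47% of all promoters), the NF-kB site GGGACTTTC (0.344%) and the C/EBP site TTGCGCAA (0.185%) were not found in these 5 windows. These matches are descriptions of letters and not evidence of binding.

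Within ctrl-PBS mice the members spanned a wide range of levels. Per kilobase of exon, C1qb was highest at 37.0 ± 6.27 CPM per kb (SD, n = 17), followed by C1qa at 25.8 ± 3.85, C1qc at 14.7 ± 2.09 and C4b at 10.3 ± 2.05. Serping1 stood at 4.02 ± 1.01 CPM per kb and C3ar1 at 0.394 ± 0.128. Cfb (0.293 ± 0.216), C5ar1 (0.244 ± 0.125) and C3 (0.156 ± 0.0936 CPM per kb) were lowest. The order of neighbours held in all 17 mice from C1qb to C1qa, from C1qa to C1qc, from C4b to Serping1 and from Serping1 to C3ar1, and in 16 of 17 from C1qc to C4b. Cfb exceeded C5ar1 in 8 of 17 mice, so that these neighbours did not differ beyond their spread. The order depends on the exon lengths used, such as 1040 bases for C1qa and 1931 for C1qc. In counts not divided by length, C1qc had a median of 1.12 times C1qa in ctrl-PBS mice. In TDP-PBS mice C4b, at 73.4 ± 21.4 CPM per kb (SD, n = 10), stood next to C1qb at 77.0 ± 21.5, and C1qb was the higher of the pair in 6 of 10 mice. Of the CPM summed over the 9 members, not divided by length, C4b made up 34.9% ± 4.44 in ctrl-PBS, 64.0% ± 7.41 in TDP-PBS, 60.4% ± 5.42 in TDP-10+12 and 63.8% ± 3.76 in TDP-15 mice. The exons of C4b span 5695 bases, against 1040 for C1qa and 1088 for C1qb, so that these shares depend in part on length.

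To determine how induction of hTDP-43ΔNLS altered complement transcripts, TDP-PBS mice were compared with ctrl-PBS mice. All 9 members rose, with the largest fold change for C4b (7.13-fold) and the smallest for C5ar1 (1.64-fold). Among all 18220 genes tested, 21.9% were called higher and 21.6% lower in this comparison (edgeR quasi-likelihood test, Benjamini-Hochberg adjusted p under 0.05). The median log2 fold change of the members was 1.11, and that of all genes -3.88e-04. In TDP-10+12 mice 8 of 9 members rose, at a background of 20.8% of genes higher and 20.0% lower, and the median of the members was 0.96. In TDP-15 mice 8 of 9 rose, at a background of 23.6% higher and 23.2% lower, and the median was 1.15. C5ar1 was the member not called in either immunized group. These 3 comparisons share the ctrl-PBS mice and are not independent of each other.

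**Figure D1:**
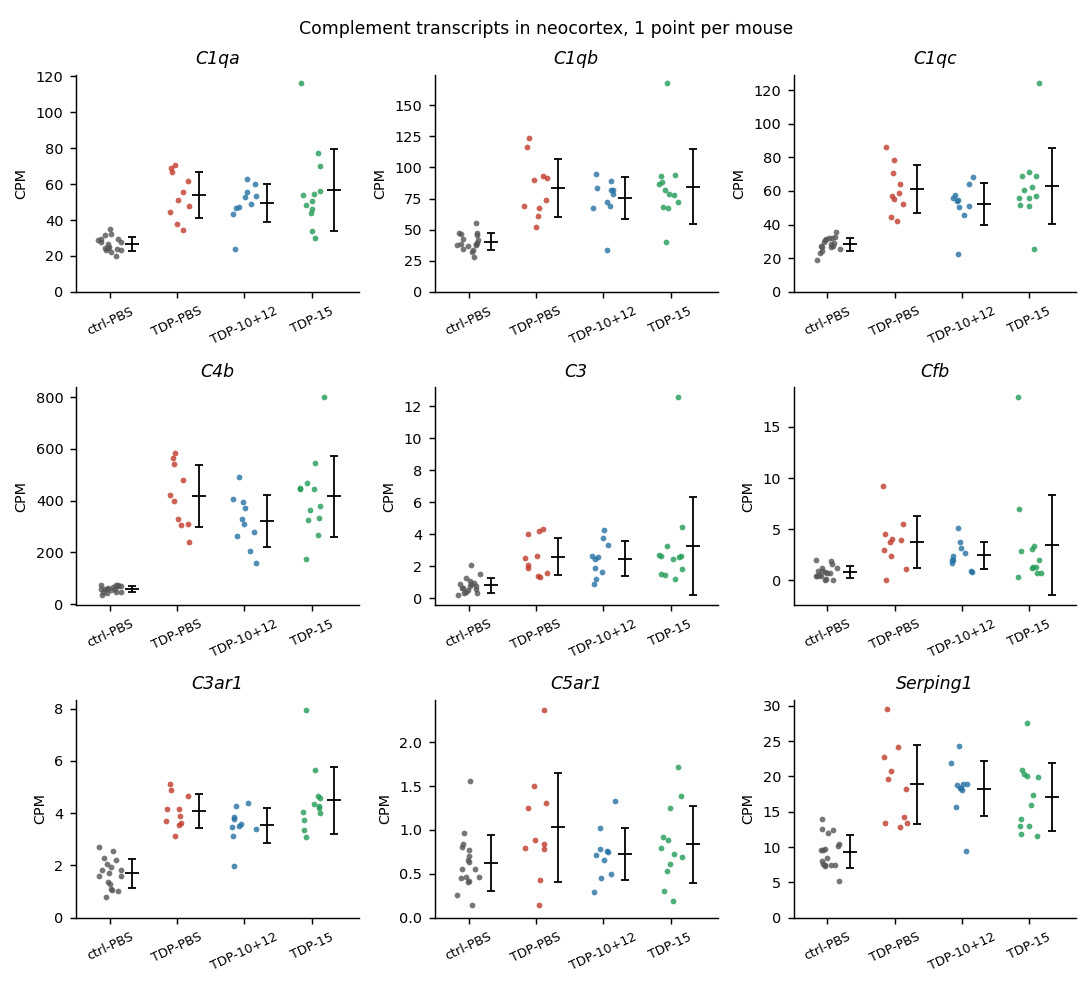
CPM of each member (vertical axis, CPM, from 0) in the 4 groups, with 1 point per mouse and a bar for the group mean with its SD. C4b shows the clearest separation, all 32 rNLS8 mice lying above the highest ctrl-PBS mouse, and the topmost point of TDP-15 in all panels is mouse 126.

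C4b, the source of the C4 fragments that build the classical C3-cutting enzyme, ranged from 35.4 to 73.7 CPM in ctrl-PBS mice, with a median of 59.1. It ranged from 241 to 585 CPM in TDP-PBS mice (median 410.0), from 158 to 493 in TDP-10+12 mice (median 319) and from 175 to 800 in TDP-15 mice (median 412). Every one of the 32 rNLS8 mice lay above every control. Such a complete separation in the same direction held for 2.31% of the genes tested in TDP-PBS, 2.23% in TDP-10+12, 2.45% in TDP-15 and 1.16% over all 32 rNLS8 mice. The log2 fold change was 2.83 ± 0.16 (SE) in TDP-PBS (edgeR adjusted p = 3.72e-20), 2.45 ± 0.16 in TDP-10+12 (adjusted p = 6.06e-18) and 2.83 ± 0.16 in TDP-15 (adjusted p = 8.18e-21). Across 49 fits that each left out 1 mouse, the TDP-PBS value stayed between 2.77 and 2.91.

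C4a, a near copy of C4b, lies in the same cluster, and reads can be divided between the 2 genes, so that the values of both are uncertain. C4a rose by 0.90 on the log2 scale in TDP-PBS (edgeR adjusted p = 6.55e-07), from 10.3 ± 2.76 CPM (SD, n = 17) to 19.2 ± 4.43 (n = 10). Of 14 neighbours listed in the MHC class III region, 13 were tested, 4 rose and 1 fell in TDP-PBS, with a median log2 fold change of 0.01. The genes with the largest called values were Slc44a4, a choline transporter gene (-0.98), C4a (0.90) and C2 (0.80).

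C1q is a multimer of 3 chain types, and the genes of its chains rose by closely similar amounts. C1qa ranged from 20.1 to 35.2 CPM in ctrl-PBS mice (median 26.4), from 34.7 to 70.7 in TDP-PBS (median 53.4), from 23.8 to 62.8 in TDP-10+12 (median 50.8) and from 30.0 to 116 in TDP-15 (median 52.2). The groups overlapped slightly, and 28 of 32 rNLS8 mice lay above every control. C1qb had medians of 38.6, 81.5, 80.1 and 80.1 CPM in ctrl-PBS, TDP-PBS, TDP-10+12 and TDP-15 mice, and 29 of 32 rNLS8 mice lay above the highest control of 55.6 CPM. C1qc had medians of 28.3, 57.9, 54.2 and 58.9 CPM in the same order, with 30 of 32 mice above the highest control of 35.4 CPM. In TDP-PBS the log2 fold changes were 1.01 ± 0.14 (SE) for C1qa, 1.06 ± 0.14 for C1qb and 1.11 ± 0.14 for C1qc (edgeR adjusted p between 2.11e-09 and 3.54e-08). They were 0.88, 0.90 and 0.89 in TDP-10+12, and 1.08, 1.07 and 1.15 in TDP-15.

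Of 12 microglial markers, which include Aif1, Tmem119 and Csf1r, 7 rose in TDP-PBS, and their summed level ranged from 303 to 378 CPM in ctrl-PBS, 380 to 507 in TDP-PBS, 311 to 487 in TDP-10+12 and 320 to 623 in TDP-15 mice. Aif1 had a log2 fold change of 0.29 that did not pass the test (edgeR adjusted p = 0.0514), and P2ry12, a marker of resting microglia, one of -0.09 (adjusted p = 0.206). Trem2 rose by 0.88 and Ctss, a lysosomal protease, by 1.14. The part of the microglial markers in the C1q values was not tested.

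The ratio of C1qb to C1qa counts within a mouse had a median of 1.55 in ctrl-PBS and 1.53 in TDP-PBS mice, and its mean log2 value differed between these groups by 0.04 ± 0.07 (SE; permutation test, 100000 resamples, two-sided, adjusted p = 0.71 over 24 ratio tests). For C1qc to C1qa the difference was 0.10 ± 0.06 (permutation test, adjusted p = 0.279). Over the 32 rNLS8 mice, with group means removed, C1qa correlated with C1qb (Pearson's r = 0.90, Spearman's rho = 0.86) and with C1qc (r = 0.91, rho = 0.86; permutation p = 1e-05, the smallest that 100000 resamples can give, and adjusted p = 8.0e-05 over 16 correlations for each of the 4 values). Without the 2 mice farthest from the median of C1qa, TDP-10+12 mouse 242 and TDP-15 mouse 126, r was 0.82 with C1qb and 0.85 with C1qc. In the 17 ctrl-PBS mice r was 0.59 (rho = 0.72) with C1qb and 0.56 (rho = 0.62) with C1qc (permutation test, adjusted p = 0.0279 and 0.0396 for r, and 0.00475 and 0.0193 for rho), and without the 2 mice farthest from the median of C1qa r was 0.76 and 0.56. Single mice departed from the common ratio: C1qb stood at 2.32 times C1qa in TDP-15 mouse 284 and at 1.09 times in ctrl-PBS mouse 38.

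**Figure D2:**
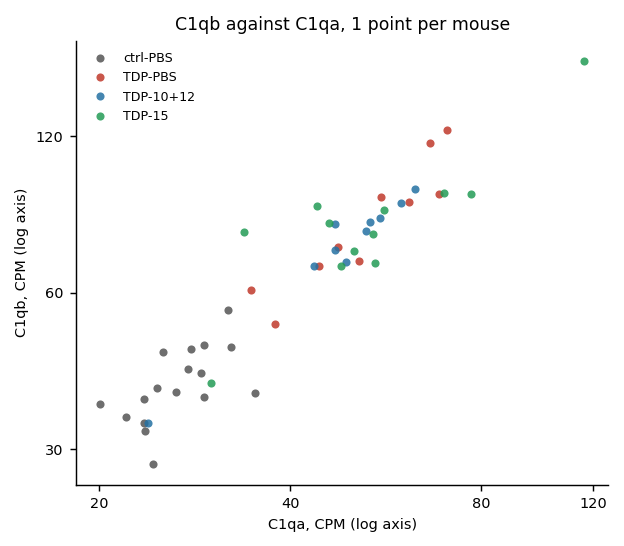
C1qb against C1qa in CPM on log axes, 1 point per mouse, coloured by group. The points follow 1 band from ctrl-PBS (C1qa 20.1 to 35.2 CPM) to TDP-15 mouse 126 (C1qa 116 CPM), and 1 TDP-10+12 mouse and 1 TDP-15 mouse lie close to or among the controls.

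C3, the component on which all pathways converge, was scarce: it ranged from 0.197 to 2.10 CPM in ctrl-PBS mice (median 0.753, equal to 14 counts), from 1.33 to 4.33 in TDP-PBS (median 2.29), from 0.903 to 4.27 in TDP-10+12 (median 2.49) and 1.17 to 12.6 in TDP-15 (median 2.60). The groups overlapped, and 19 of 32 rNLS8 mice lay above every control. The log2 fold change was 1.69 ± 0.31 (SE) in TDP-PBS (edgeR adjusted p = 1.43e-05), 1.61 ± 0.31 in TDP-10+12 (adjusted p = 3.55e-05) and 2.02 ± 0.30 in TDP-15 (adjusted p = 1.26e-07). Without TDP-15 mouse 126 the last value was 1.59. In males alone the values of TDP-PBS (1.17, adjusted p = 0.103) and TDP-10+12 (1.02, adjusted p = 0.246) did not pass.

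Cfb, factor B of the alternative pathway, ranged from 0 to 2.02 CPM in ctrl-PBS mice (median 0.752), from 0 to 9.24 in TDP-PBS (median 3.81), from 0.803 to 5.08 in TDP-10+12 (median 2.22) and 0.348 to 17.9 in TDP-15 (median 1.65). In all, 3 mice had no Cfb count, ctrl-PBS mice 84 and 318 and TDP-PBS mouse 251, which allows up to 3 counts, and 20 of 32 rNLS8 mice lay above every control. The log2 fold change was 2.17 ± 0.47 (SE) in TDP-PBS (edgeR adjusted p = 1.71e-04), 1.56 ± 0.49 in TDP-10+12 (adjusted p = 0.00779) and 2.06 ± 0.46 in TDP-15 (adjusted p = 1.86e-04). Without TDP-15 mouse 126, whose 17.9 CPM stood beside a next value of 6.93 CPM in that group, the TDP-15 value was 1.38 (adjusted p = 0.00611). With limma-voom and sample quality weights the calls of TDP-PBS (1.66, adjusted p = 0.0699) and TDP-15 (1.62, adjusted p = 0.0573) were lost, and in males alone those of TDP-PBS (1.66, adjusted p = 0.13) and TDP-10+12 (1.13, adjusted p = 0.435).

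Of the receptors, C3ar1 was called in each rNLS8 group and C5ar1 only in TDP-PBS. C3ar1, the receptor of C3a, ranged from 0.789 to 2.69 CPM in ctrl-PBS mice (median 1.70), from 3.11 to 5.10 in TDP-PBS (median 4.03), from 1.96 to 4.38 in TDP-10+12 (median 3.53) and 3.09 to 7.96 in TDP-15 (median 4.24). All TDP-PBS and TDP-15 mice and 9 of 10 TDP-10+12 mice lay above every control. C3ar1 rose by 1.26 ± 0.14 (SE) on the log2 scale in TDP-PBS (edgeR adjusted p = 2.52e-10), by 1.05 ± 0.14 in TDP-10+12 (adjusted p = 3.81e-08) and by 1.40 ± 0.14 in TDP-15 (adjusted p = 2.34e-12).

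C5ar1, the receptor of C5a, ranged from 0.148 to 1.56 CPM in ctrl-PBS mice (median 0.556, equal to 11 counts), from 0.144 to 2.37 in TDP-PBS (median 0.863), from 0.288 to 1.33 in TDP-10+12 (median 0.728) and 0.194 to 1.72 in TDP-15 (median 0.763). The groups overlapped almost entirely, with 2 of 32 rNLS8 mice above every control. Its log2 fold change was 0.71 ± 0.29 (SE) in TDP-PBS (edgeR adjusted p = 0.0411), 0.21 in TDP-10+12 (95% interval -0.39 to 0.81, adjusted p = 0.615) and 0.41 in TDP-15 (-0.15 to 0.98, adjusted p = 0.231). The TDP-PBS call was lost without the filter on low counts (adjusted p = 0.0745), with limma-voom and sample quality weights (0.139), with sex as a covariate (0.0845) and in either sex alone (females 0.815, males 0.0714). It passed in 38 of 49 fits that left out 1 mouse, and without TDP-PBS mouse 91 the value was 0.50 (adjusted p = 0.167). Whether the change of C5ar1 differed from that of C3ar1 was not tested within the fit.

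Serping1, which encodes the C1 inhibitor that stops C1r and C1s, ranged from 5.18 to 13.9 CPM in ctrl-PBS mice (median 9.53), from 12.9 to 29.6 in TDP-PBS (median 18.9), from 9.37 to 24.3 in TDP-10+12 (median 18.6) and 11.5 to 27.5 in TDP-15 (median 16.6). Most rNLS8 mice, 24 of 32, lay above every control. The log2 fold change was 1.01 ± 0.14 (SE) in TDP-PBS (edgeR adjusted p = 5.41e-08), 0.96 ± 0.14 in TDP-10+12 (adjusted p = 1.97e-07) and 0.87 ± 0.14 in TDP-15 (adjusted p = 4.89e-07). In males alone the TDP-10+12 value was 0.70 (adjusted p = 0.0528). Of 6 markers of meningeal fibroblasts, 2 rose in TDP-PBS, 4 in TDP-10+12 and 1 in TDP-15, and their part in the Serping1 values was not tested.

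**Figure D3:**
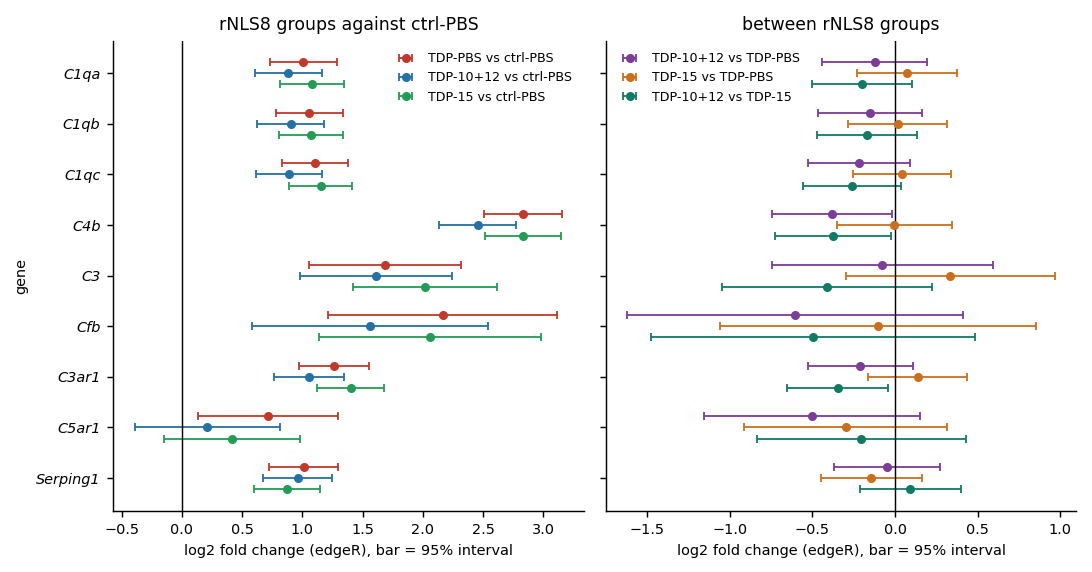
Log2 fold changes of the 9 members with their 95% intervals (horizontal axis), on the left for the 3 rNLS8 groups against ctrl-PBS and on the right between rNLS8 groups. On the left C4b lies farthest from 0 (2.45 to 2.83) and C5ar1 nearest (0.21 to 0.71), and on the right most intervals include 0.

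To see whether members changed by different amounts, each was divided by the mean of the C1q chains of the same mouse, on the log2 scale, which needs no scaling between libraries. The median ratio of C4b to C1q was 1.97 in ctrl-PBS mice (1.16 to 2.42) and 6.16 in TDP-PBS mice (3.60 to 10.2), with all 32 rNLS8 mice above every control. Its mean log2 value was higher by 1.77 ± 0.17 (SE) in TDP-PBS, by 1.55 ± 0.12 in TDP-10+12 and by 1.73 ± 0.10 in TDP-15 (permutation test, 100000 resamples, two-sided, adjusted p = 1.6e-04 for each, over 24 tests). C3 to C1q was higher by 0.72 ± 0.24 in TDP-PBS (permutation test, adjusted p = 0.0475), 0.80 in TDP-10+12 (adjusted p = 0.0373) and 0.86 in TDP-15 (adjusted p = 0.0194). The TDP-PBS value of C3 passed the threshold only narrowly: it missed it in 19 of the sets that left out 1 mouse, with a pseudocount of 2 (0.60, adjusted p = 0.0677) and in males (0.22, adjusted p = 0.724).

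C3ar1 to C1q differed by 0.28 ± 0.14 in TDP-PBS (permutation test, adjusted p = 0.149), by 0.23 in TDP-10+12 (adjusted p = 0.198) and by 0.38 in TDP-15 (adjusted p = 0.0213). Serping1 to C1q differed by -0.03 ± 0.14 in TDP-PBS (adjusted p = 0.904) and C5ar1 to C1q by -0.46 ± 0.37 (permutation test, adjusted p = 0.299). Cfb to C1q differed by 1.02 ± 0.82 in TDP-PBS (permutation test, adjusted p = 0.318), a value set in part by mice with no Cfb count. These were TDP-PBS mouse 251 and ctrl-PBS mice 84 and 318, with log2 ratios of -10.73, -10.30 and -10.02. Without mouse 251 alone the difference was 1.67 (permutation test, adjusted p = 0.0096), but both control mice then still lowered the ctrl-PBS mean. The test was not repeated without all of these mice, so no change of Cfb relative to C1q is drawn from it.

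**Figure D4:**
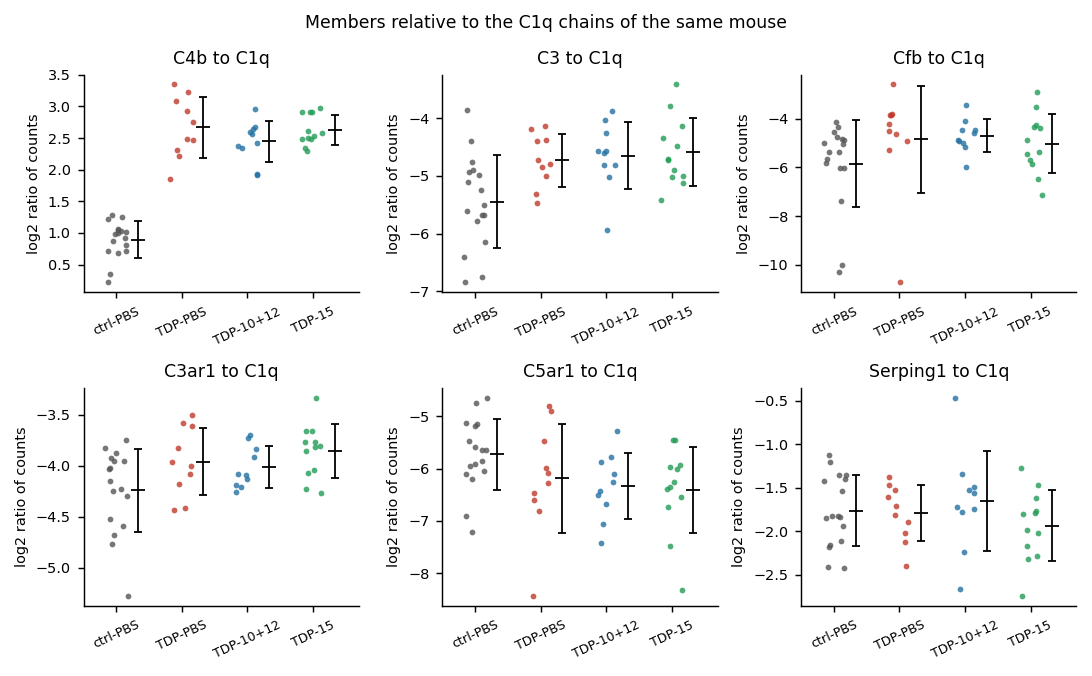
Log2 ratio of each of 6 members to the mean of the C1q chains in the same mouse (vertical axis), by group, with the mean and SD. C4b to C1q separates the rNLS8 groups from ctrl-PBS without overlap, and the lowest point of Cfb in TDP-PBS (-10.73) is mouse 251, which had 0 counts and holds only the pseudocount of 0.5. The same holds for the lowest Cfb points of ctrl-PBS, mice 84 and 318.

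The effect of immunization was examined within rNLS8 mice. No member passed the test in TDP-10+12 against TDP-PBS, in TDP-15 against TDP-PBS or in TDP-10+12 against TDP-15, and 0% of all genes tested were called in each of these 3 comparisons (edgeR). DESeq2 and limma-voom with quality weights also called 0 members. At an unadjusted p under 0.05, 1 member (C4b) passed in TDP-10+12 against TDP-PBS, 0 in TDP-15 against TDP-PBS and 2 (C4b and C3ar1) in TDP-10+12 against TDP-15. Over all genes, 5.23% passed that level in the first comparison, 552 of 18220 in the second and 6.83% in the last.

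The log2 difference of C4b between TDP-10+12 and TDP-PBS was -0.38 ± 0.18 (SE; 95% interval -0.74 to -0.02, edgeR p = 0.0413, adjusted p = 0.934), and between TDP-10+12 and TDP-15 it was -0.38 (-0.73 to -0.03, p = 0.0362, adjusted p = 0.697). For C3ar1 the difference between TDP-10+12 and TDP-15 was -0.35 (95% interval -0.65 to -0.04, edgeR p = 0.0256, adjusted p = 0.658). For TDP-15 against TDP-PBS, the difference was -0.0046 (-0.35 to 0.34) for C4b and 0.07 (-0.23 to 0.37) for C1qa. The C4b value was -0.44 in females alone and 0.33 in males alone, neither of which passed. The intervals were wider for the scarce transcripts: they were -0.30 to 0.97 for C3, -1.06 to 0.85 for Cfb and -0.91 to 0.32 for C5ar1. Differences inside these intervals remain compatible with the data, and the smallest difference that these mice could detect was not worked out.

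No member passed the test between females and males, with group in the model (also 0 with DESeq2 and with limma-voom and quality weights), while 0.0933% of all genes, 17 genes, were called (edgeR). At an unadjusted p under 0.05, 0 of 9 members passed, beside 724 of all 18220 genes. C5ar1 had the largest difference, female minus male, of -0.39 on the log2 scale (95% interval -0.82 to 0.03, edgeR adjusted p = 0.999). For the interaction of genotype and sex 0% of all genes and 0 members were called, and 0 members had an unadjusted p under 0.05, beside 661 of 18220 genes. The interaction was 0.35 for C4b (-0.15 to 0.86) and 0.60 for C3 (-0.44 to 1.63). In TDP-PBS mice C4b was 523 ± 85.4 CPM (SD) in 4 females and 348 ± 87.4 in 6 males, whereas in TDP-10+12 it was 313 ± 97.9 in 6 females and 333 ± 118 in 4 males. The sexes were divided unequally between these groups.

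Members also varied together between mice of the same group. Over 32 rNLS8 mice with group means removed, C1qa correlated with C3ar1 (Pearson's r = 0.77, Spearman's rho = 0.64, permutation test, adjusted p = 1.07e-04 and 8.8e-04), C3 with C3ar1 (r = 0.70, rho = 0.57, adjusted p = 3.52e-04 and 0.00403), C4b with Cfb (r = 0.61, rho = 0.63, adjusted p = 3.52e-04 and 7.47e-04) and C3 with C4b (r = 0.57, rho = 0.42, adjusted p = 0.0048 and 0.0453). Without the 2 mice farthest from the median of the first gene, r was 0.59, 0.49, 0.59 and 0.38 in the same order. The last no longer passed (permutation test, adjusted p = 0.0779), so that its call, though not its sign, depended on TDP-10+12 mouse 242 and TDP-15 mouse 126. C4b with Serping1 (r = 0.30, rho = 0.23, adjusted p = 0.176 and 0.348) and C3ar1 with C5ar1 (r = 0.04, rho = 0.03, permutation test, adjusted p = 0.892 and 0.922) did not pass. Within groups r of C4b with Cfb was 0.62 in TDP-PBS, 0.39 in TDP-10+12 and 0.77 in TDP-15. In 17 ctrl-PBS mice C1qa with C3ar1 reached r = 0.50 (rho = 0.54, permutation test, adjusted p = 0.0769 and 0.0476, and r = 0.40 without the 2 farthest mice), and the other pairs without C1qb or C1qc did not pass.

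Mouse 126 of TDP-15 had the highest value of its group for each of the 9 members, and mouse 242 of TDP-10+12 the lowest of its group for C1qa, C1qb, C1qc, C3, C4b, C3ar1 and Cfb. Mouse 126 also had the highest summed microglial markers of its group, at 623 CPM. Without mouse 126, TDP-15 still had 8 of 9 members higher than ctrl-PBS, and without mouse 242, TDP-10+12 still had 8 of 9.

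For each member, the non-member genes with the most similar pattern were sought by Pearson's r of log2 CPM with group means removed, over 49 mice and 15507 genes with a mean of at least 1 CPM. C1qa was most like Grn, the progranulin gene (r = 0.92), Ctss (0.91) and Cd52 (0.83). C1qb was most like Grn (0.82), Tmem119 (0.82) and B2m (0.78), and C1qc most like Ctss (0.82), Grn (0.82) and Cd52 (0.81). C4b was most like Arpc1b (0.81), Tln1 (0.80) and Neat1 (0.79). For the astrocyte filament gene Gfap r was 0.64, and its rank among all genes is not given. Gfap had 1 extreme value, 1132 CPM in TDP-10+12 mouse 301, beside a next value of 383 CPM in that group. These values are descriptions, and the libraries they share include their depth.

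The other members had looser partners. C3 was most like Unc93b1 (r = 0.70), Abhd4 (0.67) and Tcirg1 (0.65), and C3ar1 most like Clec7a (0.65), H2-Ob (0.64) and Cxcl16 (0.63). Cfb was most like Apobec1 (0.70), Zc3hav1 (0.68) and H2-Q4 (0.65), C5ar1 most like Sdc4 (0.64), Pglyrp1 (0.59) and Myo1e (0.55), and Serping1 most like Aebp1 (0.71), the proteoglycan gene Fmod (0.67) and Dab2 (0.67). Without TDP-15 mouse 126, r was 0.61, 0.59 and 0.53 for the partners of C3, and was 0.71, 0.69 and 0.69 for those of Serping1. Among the members, r was 0.94 between C1qb and C1qc and 0.03 between C5ar1 and Serping1.

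To place the members in the rest of the cascade, 50 other complement genes in 4 lists were examined, of which 34 were tested. In TDP-PBS 13 rose, 4 fell and 17 did not pass, with a median log2 fold change of 0.16. In TDP-10+12 11 rose and 3 fell, and in TDP-15 15 rose and 4 fell. Of all genes tested, 21.9% were called higher and 21.6% lower in TDP-PBS. The shares were 20.8% and 20.0% in TDP-10+12, and 23.6% and 23.2% in TDP-15. These shares are the background for the counts called in every other gene list, markers included. In the classical and lectin pathways 9 of 15 genes were tested, of which 5 rose and 1 fell in TDP-PBS. C1rb and C1ra, paralogs that encode the C1r protease and may share reads, rose by 0.99 (edgeR adjusted p = 2.50e-04) and 0.78 (adjusted p = 7.16e-04) on the log2 scale. C2, the protease next to Cfb, rose by 0.80 (adjusted p = 1.34e-04). The C1s paralogs C1s1 (0.31, edgeR adjusted p = 0.225) and C1s2 (0.20, adjusted p = 0.604) did not pass in TDP-PBS. The lectin-pathway genes Mbl1 and Mbl2 were near 0, with 14 and 34 counts over all 49 mice.

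**Figure D5:**
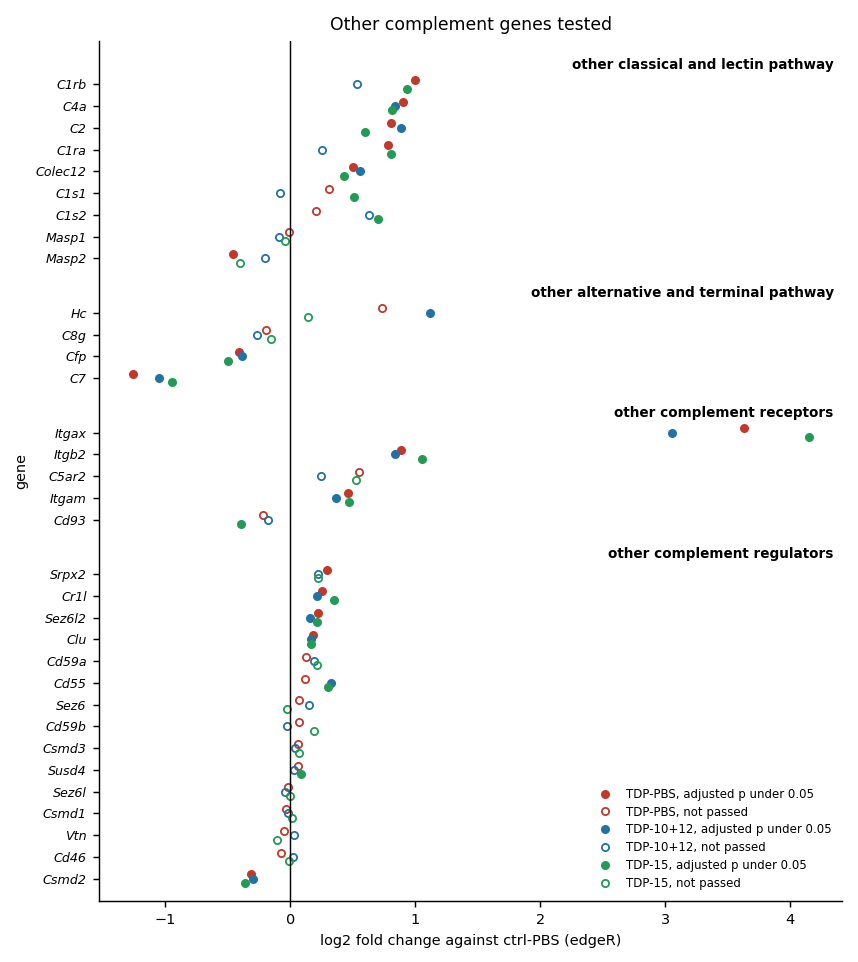
Log2 fold change against ctrl-PBS (horizontal axis) of other complement genes tested, by list, for the 3 rNLS8 groups, with filled points for an adjusted p under 0.05. Itgax stands apart at 3.05 to 4.15, and C7 is the lowest at -1.26 to -0.94.

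Of the alternative and terminal pathways, 4 of 9 genes were tested, and 0 rose and 2 fell in TDP-PBS. C7, part of the membrane attack complex, fell by 1.26 on the log2 scale (edgeR adjusted p = 1.47e-06) and properdin, Cfp, by 0.41 (adjusted p = 6.37e-05), and both also fell in TDP-10+12 and TDP-15. C6, C8a, C8b, C9 and Cfd were below the filter, with 15 to 75 counts over all mice. Hc, the gene of C5, was tested and had 289 counts in all, with log2 fold changes of 0.74 in TDP-PBS (edgeR adjusted p = 0.163), 1.12 in TDP-10+12 (adjusted p = 0.0241) and 0.14 in TDP-15 (adjusted p = 0.819).

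Of 7 other receptors 5 were tested and 3 rose in TDP-PBS. Itgax, the alpha chain of complement receptor CR4, rose by 3.63 (edgeR adjusted p = 2.52e-11), from 0.315 to 3.98 CPM on average. Itgb2, the shared beta chain, rose by 0.88 (adjusted p = 1.65e-08) and Itgam, the alpha chain of CR3, by 0.46 (adjusted p = 1.02e-05). Of 19 other regulators 16 were tested, 5 rose and 1 fell, and the log2 fold changes of all 16 ran from -0.32 to 0.30. Among the called regulators were Csmd2 (-0.32, edgeR adjusted p = 2.35e-04) and Srpx2 (0.30, adjusted p = 0.0476). The value of Serping1 in the same comparison was 1.01.

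Markers of other cells were measured beside the members. Of 8 astrocyte markers 1 rose and 2 fell in TDP-PBS: Gfap rose by 1.64 on the log2 scale, while the transporter gene Slc1a2 fell by 0.35. Of 8 neuronal markers 5 fell, with a summed level of 6256 to 8027 CPM in ctrl-PBS and 4634 to 5750 in TDP-PBS mice. Of 8 markers of infiltrating myeloid cells 5 were tested and 2 rose, Plac8 by 2.15 and Cd44 by 1.47, and their summed level was 6.63 to 24.4 CPM in ctrl-PBS and 10.3 to 26.5 in TDP-PBS. The neutrophil marker Ly6g had no count in any TDP-10+12 or TDP-15 mouse. Of 7 markers of T and NK cells 1 was tested, Cd4, and it fell by 1.19. None of 6 oligodendrocyte, 5 endothelial, 5 red blood cell and 4 tested of 5 choroid plexus markers was called in TDP-PBS, with 1 choroid plexus marker and 0 of the others at an unadjusted p under 0.05 (edgeR). Over all genes, 9100 of 18220 had an unadjusted p under 0.05 in this comparison.

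Traces of neighbouring tissue differed between mice. Summed choroid plexus markers reached 369 CPM in ctrl-PBS mouse 193, 1278 in TDP-PBS mouse 26, 1693 in TDP-10+12 mouse 51 and 1544 in TDP-15 mouse 243, against group medians of 26.5, 42.4, 35.3 and 32.3, and 3 of 4 tested markers rose in TDP-10+12 and 1 in TDP-15. Of 4 olfactory bulb markers 3 fell in TDP-PBS, Omp by 2.68, Eomes by 3.23 and Scgn by 2.41 on the log2 scale. Tbr1, also a gene of cortical neurons, was the only one to fall in TDP-10+12 and had a value of -0.08 in TDP-PBS (edgeR adjusted p = 0.347). Summed with Tbr1, the levels were 155 to 206 CPM in ctrl-PBS and 126 to 183 in TDP-PBS mice. The part of these tissues and cells in the values of the members was not tested.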

How the data were processed

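Neocortex of 49 mice was sequenced as paired-end reads of 100 bp, 1 library per mouse. The deposited values are raw counts per gene symbol and mouse. Per the labels the authors used the mouse build mm10, and HISAT, HISAT2, Bowtie, Bowtie2 and RSEM are named in their processing notes without version. Whether RSEM estimates were rounded, the annotation and the strand setting are not given in the sources used here. Reads of near-identical or overlapping genes may therefore be divided in ways that cannot be checked. The values were whole in every cell.

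Mice were grouped by their labels. Counts were tested with edgeR 4.0.16 (R 4.3.3; quasi-likelihood test, TMM, filterByExpr by group with a minimum count of 10 and total of 15, all 4 groups in 1 fit, two-sided, Benjamini-Hochberg over all 18220 genes tested, threshold 0.05). Intervals are 95%. Alternatives were DESeq2 1.42.0, limma-voom with sample quality weights (limma 3.58.1), other size factors and filters, sex, and leaving out each mouse. Ratios (pseudocount 0.5) and correlations (prior count 2) used permutation tests with 100000 resamples, and p-values were adjusted over 24 and 16 tests (scipy 1.17.1). The fit was tested on simulated data. Totals of 17775738 to 21033608 counts limit precision as counting error only for the scarce members. Exon lengths and gene positions came from GENCODE M21 (GRCm38) and promoters from RefSeq. The members, gene lists, markers and motifs were chosen with earlier results of these data known.

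All 9 members were named. From each list of other genes, the text names the called genes with the 3 largest absolute changes between TDP-PBS and ctrl-PBS mice, with genes that share reads or position with a member and genes at or near 0, and for likeness the 3 genes with the highest correlation. Genes that moved in other groups, marker genes and Hc were named after their values were seen. One gene that this rule would name is not reported here.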

Additional observations from a re-analysis of the deposited data

Results flagged for a closer look

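In the 2 groups of 10 mice, 34 sets of values (members and ratios) were checked for a mouse far from the others, and 6 were found; chance alone gives about 1 in 20. TDP-10+12 mouse 242 stood below its group for C1qa (23.8 CPM, the next mouse at 43.6), C1qb (33.7 CPM, next 67.6), C1qc (22.3 CPM, next 45.5) and C3ar1 (1.96 CPM, next 3.12). These 4 genes vary together between mice and are not independent. TDP-PBS mouse 251 stood below its group in the log2 ratio of Cfb to C1q (-10.73, next -5.29), with 0 Cfb counts. TDP-10+12 mouse 51 stood above its group in the log2 ratio of C1qb to C1qa (0.80, next 0.63).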

How the results depend on the processing

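Of the log2 fold changes of single members under the alternatives, leave-one-out fits aside, 617 stayed on the same side of the threshold and 12 lost the call, all of which are given with their gene above. The values against ctrl-PBS stayed above 0, whereas uncalled differences between rNLS8 groups and by sex changed sign under some alternatives. In males alone, fewer mice were fitted, and 5 members were called in TDP-10+12, while 8 other complement genes were called in TDP-PBS, 5 in TDP-10+12 and 11 in TDP-15, in place of 17, 14 and 19. For the ratio of C3 to C1q the difference was 0.60 (adjusted p = 0.0677) with a pseudocount of 2 and 0.22 (adjusted p = 0.724) in males, and for Cfb to C1q it was 2.34 (adjusted p = 0.03) in females. The females include ctrl-PBS mice 84 and 318 with no Cfb count, but not TDP-PBS mouse 251, a male. The correlation of C3 with C4b was 0.38 without the 2 mice farthest from the median of C3.

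Leaving out 1 mouse at a time, 8 to 9 members were called in TDP-PBS, 8 in TDP-10+12 and in TDP-15, and 0 in the comparisons within rNLS8 mice and by sex. Other complement genes called ranged from 14 to 17, 13 to 16 and 16 to 20. The ratio differences ranged from 0.63 to 0.82 for C3, 1.70 to 1.87 for C4b, 0.22 to 0.33 for C3ar1, -0.61 to -0.21 for C5ar1, 0.74 to 1.67 for Cfb, -0.08 to 0.04 for Serping1, 0.01 to 0.06 for C1qb to C1qa and 0.08 to 0.12 for C1qc to C1qa. Leaving out TDP-15 mouse 126 from the correlations and the likeness was chosen after seeing the data, and no correlation lost or gained a call. No paired analysis was possible because every mouse is a separate animal with a number of its own. Low counts of C3, Cfb and C5ar1 limit what could be detected.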
